A study of Mus musculus with 30 samples.

Results

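The 10 genes described here encode heat shock chaperones of the cytosol and of the mitochondria: Hspa1a, Hspa1b, Hsph1, Dnajb1, Hspa8, Hsp90aa1, Hsp90ab1, Hspb1, Hspd1 and Hspe1. They were chosen by name, with earlier results of these data known, and all 10 were found among the 54146 genes of the count table. Chaperones of the HSP70 class bind unfolded stretches of other proteins in a cycle driven by ATP, with J-domain proteins such as Dnajb1 delivering clients and exchange factors such as Hsph1 releasing them. HSP90 proteins act on nearly folded clients, among them the aryl hydrocarbon receptor (AHR), which HSP90 holds ready in the cytosol together with co-chaperones such as Ptges3. The transcription factor Hsf1 raises many of these genes within a short time after protein damage, and taking a tissue apart is a known trigger of that response and of immediate early genes such as Fos and Jun.

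Female wild-type (WT) C57BL/6 mice, 8 to 10 weeks old, had eaten standard chow and then, for 1 week, AIN93G, a semi-purified diet that lacks AHR ligands. ICZ mice were gavaged with 10 µg indolo[3,2-b]carbazole (ICZ), an AHR agonist that arises from indoles of the diet, in corn oil, and vehicle mice with corn oil. After 12 h the epithelium of the small intestine was released by successive rounds of EDTA into 5 fractions, F1 to F5, along the axis of crypt and villus, and RNA was read from the 3′ end of transcripts with the QuantSeq kit. Each treatment had 3 mice, numbered as biological replicates 1 to 3. They gave 14 ICZ libraries and 15 vehicle libraries, because no library is labelled as F1 of ICZ replicate 3. The sample titles also name each mouse: the mice of replicates 2 and 3 carry the same names in both treatments (WT3 and WT4), and replicate 1 is WT2 among ICZ mice and WT1 among vehicle mice. What a shared name stands for is not said. The labels do not say which end of the axis F1 is. In F5 against F1 of vehicle mice, 15 of 16 markers of absorptive enterocytes were lower at an adjusted p under 0.05 (13.2% of all genes tested were lower), and 10 of 12 stem cell, 14 of 16 proliferation and 9 of 10 Paneth cell markers were higher (14.9% of all genes). These calls are by edgeR's quasi-likelihood test with Benjamini-Hochberg adjustment. Fewer cells of a type and less RNA per cell cannot be told apart in such bulk libraries. Because later fractions came from later rounds of EDTA, place on the axis and time since the tissue was taken cannot be told apart either.

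Gene reads per library ran between 4359673 and 7819837 (median 6351137) over the 29 libraries, and the 10 chaperones took between 0.105% and 0.520% of them. Levels are given as CPM, reads of a gene scaled to a common library size, and are compared within a gene only. The F5 library of ICZ replicate 1 stood apart, with 54.3% of its reads in 10 genes against a median of 26.8% over all libraries. Whether mice of a treatment were housed or processed together is not stated, so p-values speak only for these mice. Without a block they rest on the spread between mice. With the mouse or the replicate number as a block, steady differences between mice or numbers are removed first. The variance of each gene is also moderated by that of other genes, so a small p does not measure how closely 3 mice agree. Cyp1a1, the main AHR target among detoxifying enzymes, averaged 38.9 ± 32.2 CPM (SD) in ICZ mice and 0.0543 CPM in vehicle mice over F2 to F5 (n = 3 mice each), a difference that did not pass edgeR's quasi-likelihood test with Benjamini-Hochberg adjustment (adjusted p = 0.825).

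The 4 stretches of sequence given here, from the starts of chaperone genes, are shown because they match parts of the heat shock element, the motif to which Hsf1 binds, which is made of GAA units in alternating orientation. The search used GAANNTTC and TTCNNGAA in the 250 bases before each start site of the RefSeq promoter table (build GRCm38.p6). The search covered Hspa1a, Hspa1b, Hsph1, Dnajb1, Hspb1, Hspd1 and Hspe1; Hspa8, Hsp90aa1 and Hsp90ab1 were not searched. Both words read the same on either strand, so each search covers both strands, and matches of the 2 words may overlap. Capitals mark the matches, and each stretch is written 5′ to 3′ on the strand of its gene.
Hspa1a, chr17:34972157-34972406, minus strand: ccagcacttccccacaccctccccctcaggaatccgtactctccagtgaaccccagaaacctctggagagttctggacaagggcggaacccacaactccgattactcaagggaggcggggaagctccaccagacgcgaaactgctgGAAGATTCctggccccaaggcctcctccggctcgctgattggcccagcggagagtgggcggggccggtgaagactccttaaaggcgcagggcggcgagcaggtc
Hspa1b, chr17:34959239-34959488, minus strand: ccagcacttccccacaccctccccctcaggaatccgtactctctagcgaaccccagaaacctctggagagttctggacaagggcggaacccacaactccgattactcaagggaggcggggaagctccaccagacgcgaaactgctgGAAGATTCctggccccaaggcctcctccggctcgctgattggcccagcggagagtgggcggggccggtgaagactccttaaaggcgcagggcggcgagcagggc
Hsph1, chr5:149636351-149636380, minus strand: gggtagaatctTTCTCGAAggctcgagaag
Hspe1, chr1:55088053-55088082, plus strand: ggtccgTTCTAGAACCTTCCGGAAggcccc
The Hspa1a and Hspa1b windows lie just upstream of their genes, overlap no other gene of the GENCODE M21 annotation, and differ at 3 of 250 bases. Both hold the match GAAGATTC, which starts 104 bases before the start site. The Hsph1 match starts 33 bases before the first RefSeq start site and falls in the first exon, a 5′ untranslated stretch, of a GENCODE transcript of the same gene. The Hspe1 stretch holds 3 overlapping matches, the first 89 bases before the start. It lies in an untranslated exon of Hspd1, which is read from the other strand, so that both genes share this run. For Hspd1 these matches lie before start site 2 of the RefSeq promoter table. The window before its start site 1 held no match of either word.

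Hspb1 held 2 matches of GAANNTTC, and Dnajb1 held none of either word. A match of at least 1 of the words was found in 12.8% of the 32851 promoters of the table, GAANNTTC in 6.69%, TTCNNGAA in 7.17% and both together in 1.02%. The core of the AHR response element, GCGTG on either strand, was found once before the first start site of Dnajb1, in 2 places each before the first Hspd1 and the Hspe1 start and in none of the windows of Hspa1a, Hspa1b, Hsph1 and Hspb1, against 28.2% of all promoters. A match is a description of the letters and no evidence of binding.

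Hspa1a and Hspa1b, neighbours on chromosome 17 (34969190 to 34972156 and 34956436 to 34959238, minus strand, GRCm38), encode the inducible HSP70. Their transcripts share 1716 windows of 50 bases, which is 58.8% of those of Hspa1a and 62.3% of those of Hspa1b, but none of the 451 windows in the last 500 bases, where 3′ end reads start. Because reads that fit both copies can be lost or split, the 2 genes were also added to 1 row, and that sum leads here. Hspa1a made up between 38.0% and 52.9% of the reads of the pair in the 10 groups.

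The pair rose along the fractions more than any other member in both treatments. In ICZ mice the libraries held 2.58 and 3.12 CPM in F1, then 1.98, 7.30 and 14.1 CPM in F2, 10.1, 33.6 and 52.9 CPM in F3, 27.0, 132 and 100.2 CPM in F4, and 39.8, 134 and 131 CPM in F5, in the order of the replicate numbers. In vehicle mice they held 2.91, 12.7 and 16.5 CPM in F1, 2.54, 21.9 and 25.2 CPM in F2, 11.8, 61.0 and 56.9 CPM in F3, 56.1, 259 and 179 CPM in F4, and 97.8, 207 and 241 CPM in F5. Replicate 1 was the lowest mouse of its treatment in every fraction. Its level in F2 was below that in F1 in both treatments, and from F3 on it was above it. No library of F4 or F5 overlapped one of F1 within a treatment, while neighbouring fractions did overlap. The share of all genes without such overlap is not given here.

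In edgeR's quasi-likelihood test with Benjamini-Hochberg adjustment over all genes, with the mouse as a block, the pair was higher in F5 than in F1 by 4.86 ± 0.39 (log2 fold change ± SE, adjusted p = 2.73e-06) in ICZ mice and by 4.29 ± 0.31 (adjusted p = 6.52e-06) in vehicle mice. In F3 against F1 it was already higher by 3.09 ± 0.41 in ICZ mice (adjusted p = 0.000586) and by 1.98 ± 0.31 in vehicle mice (adjusted p = 0.0149). The single genes followed each other closely. Hspa1a differed by 5.08 ± 0.48 in ICZ mice and 4.69 ± 0.43 in vehicle mice between F5 and F1, and Hspa1b by 4.72 ± 0.37 in ICZ mice and 3.88 ± 0.25 in vehicle mice.

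**Figure D1:**
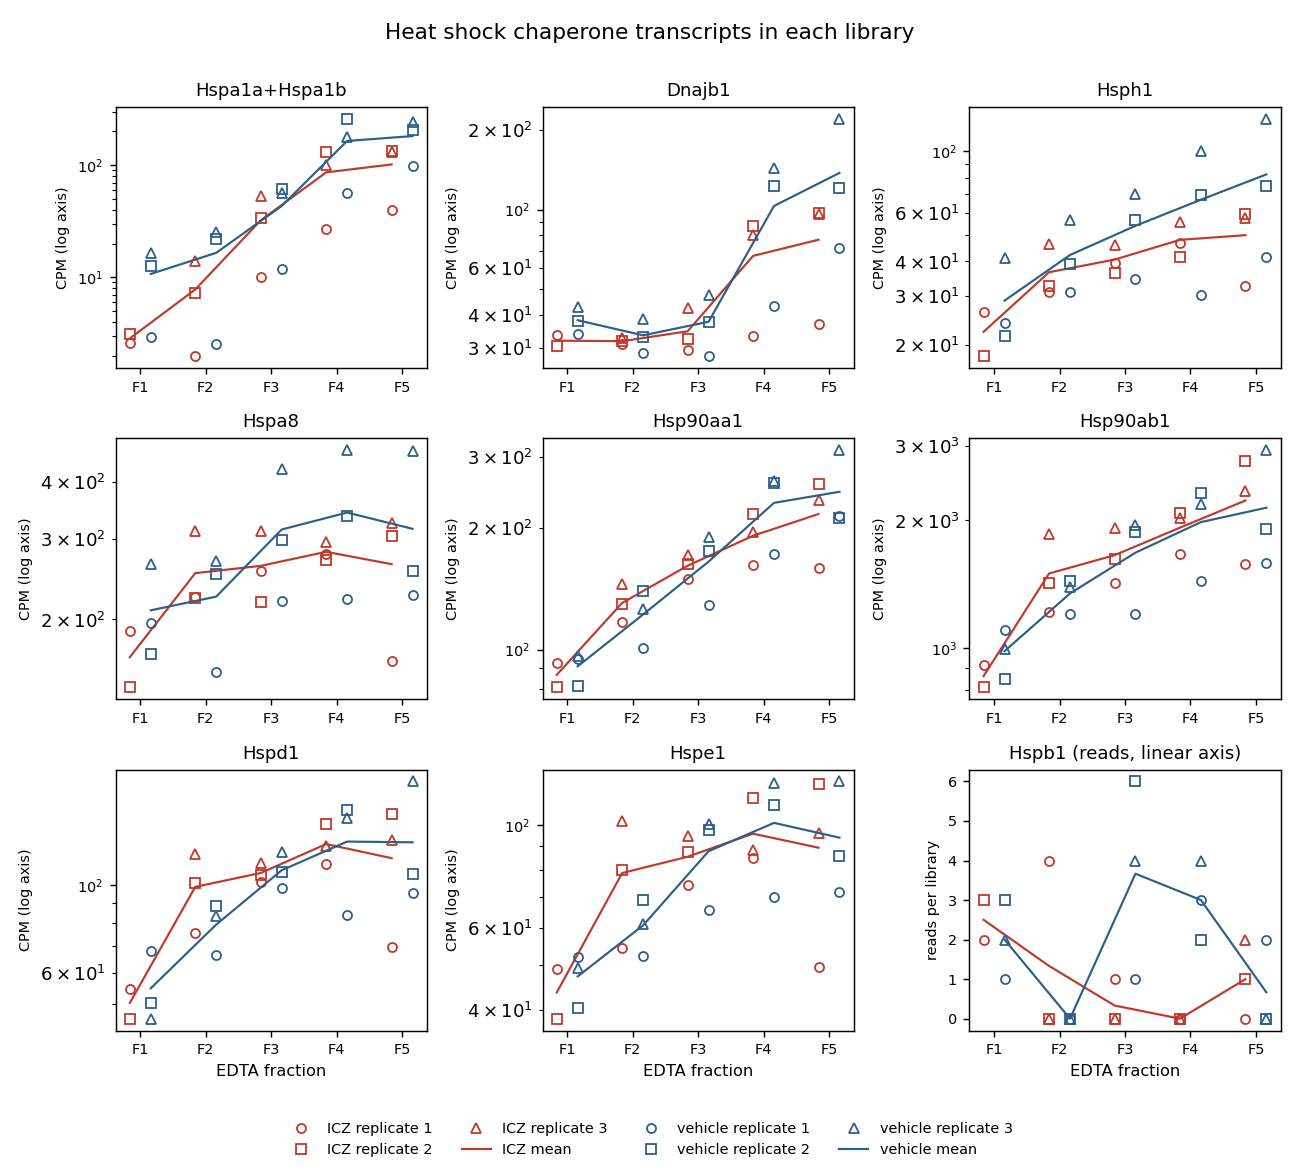
Level of each chaperone in every library, in CPM on a log axis, against the EDTA fraction F1 to F5; the last panel gives Hspb1 as reads on a linear axis. Symbols are mice by replicate number, red for ICZ and blue for vehicle, and lines join group means. The Hspa1a and Hspa1b sum averages 102 CPM in F5 and 2.85 CPM in F1 of ICZ mice, and Dnajb1 stays level up to F3.

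Dnajb1, the J-domain protein that works with inducible HSP70, followed another course: it stayed level through F3 and was higher only later. In ICZ mice it averaged 32.0 ± 2.19 CPM in F1 (SD, n = 2), 31.8 ± 0.884 CPM in F2, 34.7 ± 6.83 CPM in F3, 66.8 ± 29.1 CPM in F4 and 76.9 ± 34.5 CPM in F5 (SD, n = 3 each). In vehicle mice it averaged 38.2 ± 4.57 CPM in F1, 33.5 ± 5.0 CPM in F2, 37.7 ± 9.76 CPM in F3, 103 ± 52.8 CPM in F4 and 137 ± 75.5 CPM in F5 (SD, n = 3 each). Replicate 1 was the low mouse of ICZ F4 and F5, with 33.4 and 37.1 CPM, while the other ICZ mice had between 80.2 and 97.4 CPM. In vehicle F5 the mice had 71.6, 121 and 219.9 CPM.

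The difference of F3 from F1 was -0.08 ± 0.32 in ICZ mice and -0.07 ± 0.25 in vehicle mice (log2 fold change ± SE). F5 was higher than F1 by 1.07 ± 0.32 in ICZ mice (adjusted p = 0.0222) and by 1.73 ± 0.25 in vehicle mice (adjusted p = 0.000399, edgeR's quasi-likelihood test with Benjamini-Hochberg adjustment). F4 was higher than F1 by 1.30 ± 0.25 in vehicle mice (adjusted p = 0.00363), and by 0.83 ± 0.31 in ICZ mice, which did not pass (adjusted p = 0.0732).

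The step from F3 to F4 was examined after these values had been seen. For the Hspa1a and Hspa1b sum, the level in F4 over that in F3 was 2.67, 3.92 and 1.89 in ICZ replicates 1 to 3 and 4.75, 4.24 and 3.14 in vehicle replicates 1 to 3. For Dnajb1 the same ratio was 1.14, 2.69 and 1.89 in the ICZ mice and 1.55, 3.26 and 3.02 in the vehicle mice. Both ratios were above 1 in 6 of 6 mice, which was not particular to these genes. The ratio of Hsp90ab1 was smaller, between 1.05 and 1.29, and also above 1 in 6 of 6 mice. That of Hsph1 was 0.878 in vehicle replicate 1 and above 1 in the other mice. The share of all genes above 1 in every mouse is not given here.

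Few genes passed the test at this step. In ICZ mice 6 genes passed, 4 of them higher (0.03% of the genes tested), among them Hspa1a (1.68 ± 0.27, adjusted p = 0.0437) and Hspa1b (1.27 ± 0.21, adjusted p = 0.0427). In vehicle mice 54 genes passed, all higher (0.41% of the genes tested), among them Hspa1b (2.02 ± 0.22, adjusted p = 0.000158) and Dnajb1 (1.37 ± 0.25, adjusted p = 0.0316) by edgeR's quasi-likelihood test with Benjamini-Hochberg adjustment. Of the 54 genes, 11 belonged to the list of immediate early genes, of which 14 were tested; Jun, for example, was higher by 1.54 ± 0.15, Fos by 1.27 ± 0.15 and Dusp1, a phosphatase that ends MAP kinase signals, by 2.67 ± 0.29. The part of these genes' rise in the chaperone values was not tested. In ICZ mice Dnajb1 had 0.91 ± 0.26 and did not pass (adjusted p = 0.405). The other tested chaperones did not pass at this step, with differences between 0.11 and 0.47 in vehicle mice apart from Hspa1a at 1.88 ± 0.35 (adjusted p = 0.0608).

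The step rests on few mice. Without the mouse block no member passed it in either treatment. Leaving out vehicle replicate 2 or vehicle replicate 3 left 1 member past the threshold in vehicle mice, and leaving out ICZ replicate 2 or 3 left 1 and 0 in ICZ mice. With the pair as 1 row it was 1.47 ± 0.23 in ICZ mice (adjusted p = 0.0527) and 1.97 ± 0.27 in vehicle mice (adjusted p = 0.00587).

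Hsph1, an HSP110 protein that exchanges nucleotide on HSP70, and Hspa8, the constitutive HSP70, changed less. Hsph1 held 32.6, 59.5 and 57.2 CPM in F5 of the ICZ mice, against 26.4 and 18.2 CPM in F1, and 41.5, 75.0 and 130.5 CPM in F5 of the vehicle mice, against 24.1, 21.5 and 41.1 CPM in F1. F5 and F1 did not overlap in either treatment, in vehicle mice by a narrow margin (41.5 against 41.1 CPM). The share of all genes without such overlap is not given here. By edgeR's quasi-likelihood test with Benjamini-Hochberg adjustment the differences were 1.07 ± 0.20 in ICZ mice (adjusted p = 0.000602) and 1.42 ± 0.19 in vehicle mice (adjusted p = 8.69e-05). Hspa8 differed by 0.54 ± 0.19 in ICZ mice (adjusted p = 0.0349) and by 0.54 ± 0.15 in vehicle mice (adjusted p = 0.0118), the smallest change of the tested members. The call of Hspa8 is not firm: it held in 6 of 8 alternatives in ICZ mice, but not without ICZ replicate 2 (adjusted p = 0.765) or ICZ replicate 3, and in 4 of 7 in vehicle mice, but not without vehicle replicate 2, vehicle replicate 3 or the mouse block (adjusted p = 0.256). Its F5 libraries overlapped those of F1 in both treatments, with 162, 305 and 326 CPM in F5 and 189 and 142 CPM in F1 of the ICZ mice. In ICZ mice its highest mean was in F4, at 282 ± 13.2 CPM, and in vehicle mice as well, at 343 ± 125 CPM. Among ICZ mice only replicate 1, whose F5 library stood apart, was lower in F5 than in F4, where the mice had 278, 270 and 296 CPM.

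The means of both HSP90 genes were higher in each fraction than in the one before. Hsp90aa1, the inducible HSP90, averaged 86.6 ± 8.44, 131 ± 14.2, 161 ± 10.8, 191 ± 28.0 and 217 ± 50.6 CPM from F1 to F5 in ICZ mice, and 90.9 ± 8.29, 122 ± 19.4, 165 ± 32.0, 231 ± 50.3 and 246 ± 57.0 CPM in vehicle mice (SD, n = 3, in ICZ F1 n = 2). Hsp90ab1, the constitutive HSP90, averaged 861 ± 73.0, 1501 ± 325, 1657 ± 249.9, 1924 ± 224 and 2229 ± 601 CPM in ICZ mice, and 986 ± 129.9, 1347 ± 125, 1680.2 ± 411, 1983 ± 471 and 2143 ± 698 CPM in vehicle mice. No F2 library overlapped an F1 library for either gene in either treatment, but in vehicle mice neither gene passed in F2 against F1. The share of all genes without such overlap is not given here. F5 exceeded F1 for Hsp90aa1 by 1.26 ± 0.14 in ICZ mice (adjusted p = 7.44e-06) and by 1.42 ± 0.14 in vehicle mice (adjusted p = 5.4e-06), and for Hsp90ab1 by 1.26 ± 0.16 in ICZ mice (adjusted p = 2.14e-05) and by 1.07 ± 0.18 in vehicle mice (adjusted p = 0.000438).

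Hspd1, the barrel of the mitochondrial chaperonin, and Hspe1, its lid, are neighbours on chromosome 1 (55077835 to 55088243, minus strand, and 55088132 to 55091307, plus strand) and overlap at their starts. Hspd1 averaged 50.4 ± 6.19, 99.0 ± 22.3, 107 ± 6.14, 127 ± 15.1 and 117 ± 42.1 CPM from F1 to F5 in ICZ mice, and 54.9 ± 11.8, 79.5 ± 11.4, 109 ± 11.4, 129 ± 39.0 and 128 ± 47.5 CPM in vehicle mice. Hspe1 averaged 43.7 ± 7.5, 78.8 ± 23.9, 85.4 ± 10.4, 95.7 ± 15.9 and 89.3 ± 36.8 CPM in ICZ mice, and 47.3 ± 6.12, 60.8 ± 8.30, 87.7 ± 19.2, 101 ± 27.5 and 93.8 ± 26.9 CPM in vehicle mice. Both means were highest in F4 and not in F5, by less than the spread between mice. Among ICZ mice only replicate 1, whose F5 library stood apart, was lower in F5 than in F4. It had 69.9 against 113 CPM of Hspd1 and 49.6 against 85.0 CPM of Hspe1. Among vehicle mice only replicate 2 was lower in F5, with 107 against 155 CPM of Hspd1 and 85.8 against 110 CPM of Hspe1. F5 was higher than F1 for Hspd1 by 1.12 ± 0.20 in ICZ mice (adjusted p = 0.000466) and 1.17 ± 0.24 in vehicle mice (adjusted p = 0.00355), and for Hspe1 by 0.91 ± 0.26 in ICZ mice (adjusted p = 0.0144) and 0.95 ± 0.17 in vehicle mice (adjusted p = 0.000589).

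Hspd1 shares sequence with a processed copy, Hspd1-ps3, which received 10846 reads, between 32.2% and 40.7% of the reads of both in a group. The copy was higher in F5 than in F1 by 1.56 ± 0.16 in ICZ mice (adjusted p = 2.88e-06) and by 1.30 ± 0.18 in vehicle mice (adjusted p = 0.000123), and both rows were thus higher. The level of Hspd1 is uncertain to the extent that reads could be split between them. The strand setting of the counting is not given in the sources used here, so reads at the overlap of Hspd1 and Hspe1, and of Hspa1a with the antisense gene Gm20481, may not be told apart.

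Hspb1, a small heat shock protein that holds unfolded proteins without ATP, was close to absent. It had 41 reads over all 29 libraries and between 0 and 6 in each, and it did not enter any test. All 3 ICZ libraries of F4 and all 3 vehicle libraries of F2 had 0 reads. The few reads set no order of the fractions at this depth.

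Counted over the members, 9 of the 10 passed the filter on low counts. In ICZ mice 3 were higher in F2 than in F1 (Hsp90aa1, Hsp90ab1 and Hspd1; 6.07% of all genes tested were higher), 7 in F3 (10.7% of all genes), 8 in F4 (13.8%) and 9 in F5 (16.5%). In vehicle mice none passed in F2 (0% of all genes), 8 were higher in F3 (all but Dnajb1; 4.18%), 9 in F4 (13.4%) and 9 in F5 (14.9%). The 0 in F2 of vehicle mice is by edgeR's quasi-likelihood test with Benjamini-Hochberg adjustment; 4 members had an unadjusted p under 0.05, as did 11% of all genes, and DESeq2 also gave 0. The median log2 fold change of the 9 tested members in F5 against F1 was 1.12 in ICZ mice and 1.42 in vehicle mice, beside 0.04 and 0.02 over all genes tested in ICZ and vehicle mice.

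The early counts depend on single mice. In ICZ mice the F2 count was 7 without ICZ replicate 1 and 0 without ICZ replicate 2 or 3, and the counts without ICZ replicate 2 were 1 in F3, 5 in F4 and 4 in F5. In vehicle mice the F3 count fell to 0 without vehicle replicate 2 or vehicle replicate 3 and to 1 without the mouse block, and the F4 count to 3 without vehicle replicate 2.

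**Figure D2:**
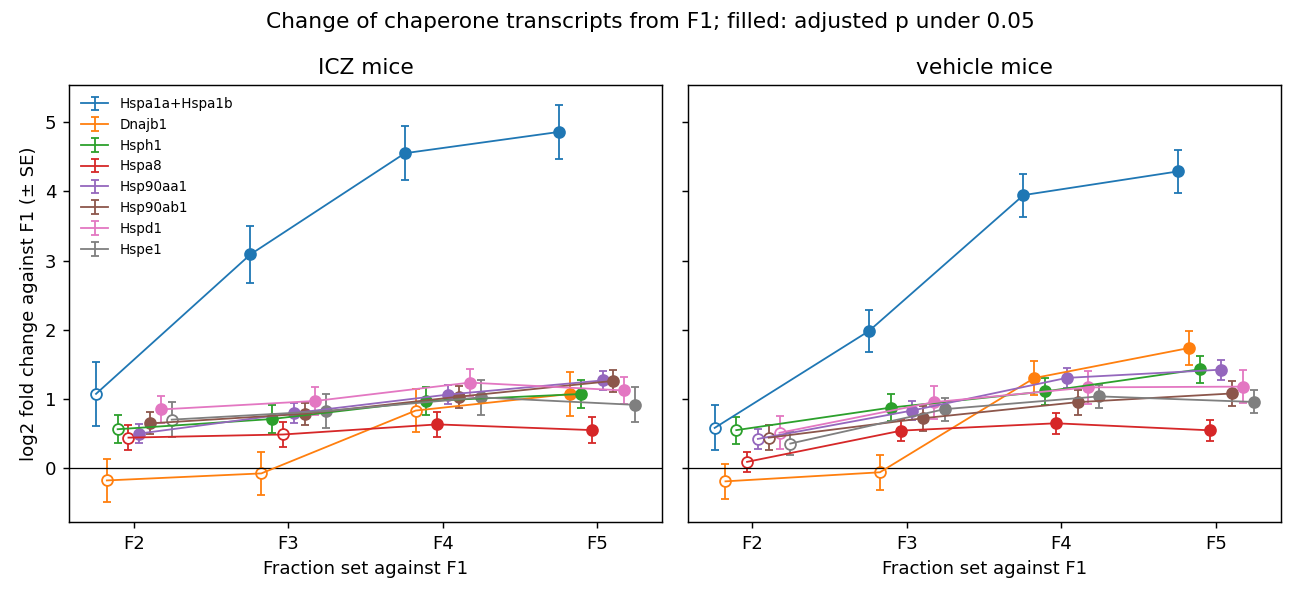
Log2 fold change (± SE) of each tested chaperone in F2, F3, F4 and F5, each against F1, in ICZ mice (left) and vehicle mice (right); filled symbols have an adjusted p under 0.05. The Hspa1a and Hspa1b sum reaches 4.86 in ICZ mice and 4.29 in vehicle mice in F5, and Dnajb1 leaves zero only in F4.

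Other chaperone lists had smaller median differences than the members between F5 and F1 of vehicle mice, a contrast between lists that was not tested. Members and lists were chosen with earlier results of these data known, so the contrast is a description only. Their counts stand beside 14.9% of all genes higher and 13.2% lower in that comparison. Of the other HSP70 proteins, 2 of 4 tested were higher and none lower: Hspa14, which sits on the ribosome, by 0.55 ± 0.17 and Hspa9, the HSP70 of mitochondria, by 0.38 ± 0.13, while Hspa4 had 0.05 ± 0.10. Among 9 J-domain genes, 1 was higher (Dnajc2, a ribosome partner of HSP70, 0.58 ± 0.15) and 1 lower (Dnajc5, which serves secretory vesicles, -0.41 ± 0.12). Of 8 exchange factors and related HSP70 partners, St13 (0.55 ± 0.13) and Grpel1 (0.35 ± 0.13), the exchange factor of mitochondrial HSP70, were higher. Bag4 had -0.35 ± 0.13 and did not pass (adjusted p = 0.0514, edgeR's quasi-likelihood test with Benjamini-Hochberg adjustment).

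HSP90 co-chaperones were higher in 5 of 12 cases and lower in none. These were Ppid (0.78 ± 0.18), Unc45a (0.69 ± 0.18), Cdc37, which loads kinases onto HSP90 (0.41 ± 0.13), and also Stip1, which bridges HSP70 and HSP90 (0.49 ± 0.16), and Ahsa1, which speeds the ATPase of HSP90 (0.53 ± 0.18), both named after their values were seen. The cytosolic chaperonin TRiC, which folds actin and tubulin, had 7 of 8 subunits higher, with a median of 0.54; Cct2 was higher by 0.67 ± 0.13, Cct5 by 0.62 ± 0.18 and Tcp1 by 0.57 ± 0.18. Of 7 other mitochondrial proteostasis genes, Trap1, the HSP90 of mitochondria (0.73 ± 0.19), and the protease Lonp1 (0.46 ± 0.15) were higher.

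Chaperones of the endoplasmic reticulum were higher in 8 of 14 cases, with a median of 0.48, led by Hspa5 (0.80 ± 0.13), Hsp90b1 (0.57 ± 0.11) and Hyou1 (0.89 ± 0.17). Among 3 genes that regulate the heat shock response, Hsbp1, a binding partner that restrains Hsf1, was lower by -0.41 ± 0.11 (adjusted p = 0.0103), while Hsf1 itself had 0.61 ± 0.26 and did not pass (adjusted p = 0.0846). Of 14 immediate early genes 13 were higher, with a median of 2.27; Jun was higher by 2.40 ± 0.16, Ier2 by 2.15 ± 0.16 and Fos by 1.64 ± 0.15. The summed immediate early genes lay between 1908 and 3803 CPM in F5 and between 1569 and 1854 CPM in F1 of ICZ mice. In vehicle mice they lay between 3556 and 5666 CPM in F5 and between 1192 and 1925 CPM in F1. They did not rise steadily, and their means in F2 and F3 were below that in F1. In ICZ mice the means were 1712, 962 and 1126 CPM from F1 to F3, and in vehicle mice 1520, 1051 and 1163 CPM. The Hspa1a and Hspa1b sum was already higher in F3 than in F1. All of these comparisons rest on the same F1 libraries.

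**Figure D3:**
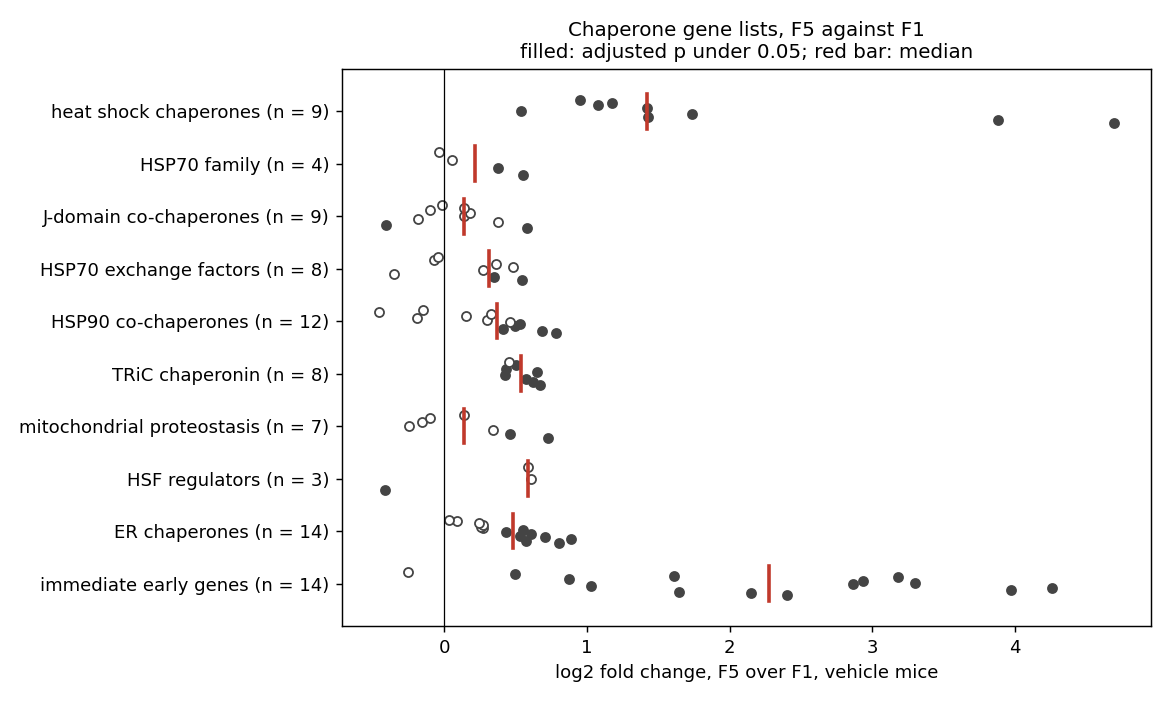
Log2 fold change of F5 over F1 in vehicle mice for the tested genes of each chaperone list and of the immediate early genes; filled points have an adjusted p under 0.05 and red bars are medians. The 9 tested heat shock chaperones have a median of 1.42, the TRiC subunits of 0.54, the endoplasmic reticulum chaperones of 0.48 and the immediate early genes of 2.27.

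The profile of a member over all 29 libraries was also set beside that of 9296 genes with a mean of at least 5 CPM, by Pearson's r of log2 CPM, as a description, since libraries of a mouse and of a fraction share cells and depth. The pair was most like Cyr61 (r = 0.94), Rasl11b (0.92), Rccd1 (0.92), Ppp1r15a (0.92) and Egr1 (0.91). Hsp90ab1 was most like Srsf7, Rps9, Rif1 and Kif23 (all 0.97). Hspd1 was most like Rps15, Ccnb1, Wdr89, RP23-294O1.1 and Rps26-ps1 (all 0.97).

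Among the members themselves, r was 0.97 between Hspa1a and Hspa1b, 0.96 between Hspd1 and Hspe1, and 0.95 between Hsp90aa1 and Hsp90ab1. Values between families were nearly as high, at 0.94 for Hsp90ab1 with Hspd1 and with Hspe1, and 0.91 for Hsp90aa1 with Hspd1 and with Hspa1b. Hsph1 and Hspa8 had 0.90, and Dnajb1 and Hspe1 the lowest value, 0.65. The inducible HSP70 genes had 0.73 (Hspa1a) and 0.76 (Hspa1b) with Hspd1.

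Whether ICZ changes the chaperones was asked on the summed reads of F2 to F5, the fractions that all 6 mice have. The Hspa1a and Hspa1b sum was 18.2, 82.8 and 71.5 CPM in ICZ replicates 1 to 3, against 40.4, 142 and 130.1 CPM in vehicle replicates 1 to 3. The treatments overlapped, because both mice numbered 1 were low, and within each number the ICZ mouse was the lower one: its level was 0.451, 0.584 and 0.550 times that of the vehicle mouse with the same number. Dnajb1 had 32.5, 66.4 and 61.3 CPM in ICZ mice, against 42.7, 80.7 and 117 CPM in vehicle mice, which is lower in 3 of 3 numbers. Hsph1 had 38.8, 44.5 and 51.8 CPM in ICZ mice, against 35.1, 61.6 and 91.6 CPM in vehicle mice.

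Without a block, none of the 9 tested members passed edgeR's quasi-likelihood test with Benjamini-Hochberg adjustment, and neither did any of the 15497 genes (0%). No member had an unadjusted p under 0.05, against 5.72% of all genes, and DESeq2 gave 0 members too. The difference of ICZ from vehicle was -0.86 ± 0.75 for the pair (adjusted p = 0.903), -0.58 ± 0.43 for Dnajb1 and -0.48 ± 0.33 for Hsph1 (log2 fold change ± SE). The other 5 tested members differed by -0.15 ± 0.23 (Hspa8), -0.12 ± 0.15 (Hsp90aa1), 0.04 ± 0.19 (Hsp90ab1), 0.03 ± 0.17 (Hspd1) and 0.05 ± 0.19 (Hspe1). For these 5 genes the error was as large as the difference or larger, so a difference of either sign remains possible.

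Mice with the same replicate number deviated together from their treatment means. The sample titles tie only replicates 2 and 3 by a shared mouse name. The replicate number was therefore also used as a block, a choice made from these same data. Then the pair was lower in ICZ mice by -0.92 ± 0.08 (adjusted p = 1.07e-05), Hspa1a by -1.0 ± 0.09 (adjusted p = 1.74e-05) and Hspa1b by -0.82 ± 0.08 (adjusted p = 4.26e-05). These were 2 of 9 tested members, lower as were 0.77% of all genes. Dnajb1 had -0.55 ± 0.13 and did not pass (adjusted p = 0.143). The size of the difference was close to that without a block and its error smaller.

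Some further fits with that block were added after its result had been seen. All keep the block, so they cannot decide whether the mice were paired. Of 16 alternatives of the summed comparison, Hspa1a and Hspa1b each passed in 6, all of them with the block. Hspa1a and Hspa1b passed with the mice of any 1 number left out, with differences between -1.12 and -0.91 for Hspa1a and between -0.88 and -0.74 for Hspa1b. They also passed without the F5 libraries (-0.97 and -0.74), and in DESeq2 (-1.01 and -0.82), where Dnajb1 passed too (-0.54, adjusted p = 0.00411).

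Within single fractions the pair differed between ICZ and vehicle mice by -1.88 ± 0.81 in F1, -1.10 ± 1.01 in F2, -0.44 ± 0.88 in F3, -0.91 ± 0.82 in F4 and -0.82 ± 0.45 in F5, the same sign throughout. No member passed without a block in any fraction, where the share of all genes that did was 0.0324% (F1), 0.0165% (F2), 0.00815% (F3) and 0% (F4 and F5). In edgeR's quasi-likelihood test only Hspa1b in F1 had an unadjusted p under 0.05, and its adjusted p was 0.946; DESeq2 gave 0 members in each fraction. In F1, Hspa1b held 1.29 and 1.87 CPM in ICZ mice, against 2.35, 6.49 and 10.1 CPM in vehicle mice, and Dnajb1 held 33.5 and 30.4 CPM against 33.8, 37.8 and 42.9 CPM. These 2 members did not overlap between treatments there, both lower in ICZ mice, as were 9.67% of all genes. Hspa1a and the pair as 1 row did overlap in F1. The pair had 2.58 and 3.12 CPM in ICZ mice and 2.91 CPM in vehicle replicate 1. Hspa1b had only 6 and 12 reads in the ICZ libraries of F1 and 17 in that of vehicle replicate 1. Leaving out vehicle replicate 1, the low mouse, brought 2 members past the threshold in F1 and 1 in F3.

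With the replicate block, Hspa1a and Hspa1b were lower in ICZ mice in F4, by -0.98 ± 0.14 (adjusted p = 0.00238) and -0.87 ± 0.14 (adjusted p = 0.00887). They were the only lower genes among the 6 called of 12587 (0.0159% lower). In F2, Hspa1b was lower by -1.09 ± 0.27 (adjusted p = 0.0406), beside 1.09% of all genes. For the pair as 1 row the adjusted p of F1 was 0.377, that of F2 0.0155, of F3 0.286, of F4 0.00141 and of F5 0.115.

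Whether the ICZ difference itself changed along the fractions was tested in all 29 libraries. No member passed as a slope over the fraction number (2 of 13611 genes passed, 0.0147%) or over the 4 fraction terms together (1 of 14067 genes, 0.00711%). DESeq2 also gave 0 members in both tests. At an unadjusted p under 0.05 in edgeR's quasi-likelihood test the slope gave 0 members and the joint test 1, Hspa1b (adjusted p = 0.927). The slope was 0.05 ± 0.12 per fraction for the pair and -0.19 ± 0.09 for Dnajb1 (adjusted p = 0.92), the most negative of the members.

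**Figure D4:**
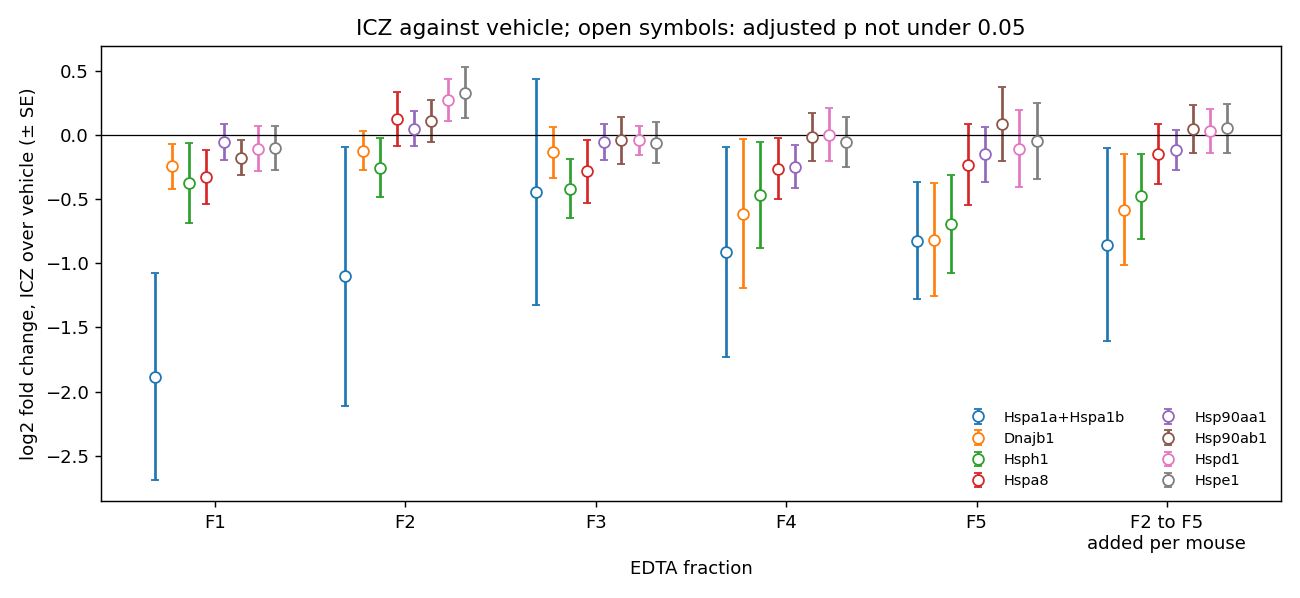
Log2 fold change (± SE) of ICZ over vehicle for each tested chaperone in F1 to F5 and in F2 to F5 added per mouse, without a replicate block; no adjusted p is under 0.05. The Hspa1a and Hspa1b sum lies between -1.88 and -0.44 with wide errors, and the HSP90 and chaperonin genes lie near zero.

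Some other groups of genes had estimates of the same sign as the pair, while stroma markers mostly had the opposite sign. Over F2 to F5 added per mouse, without a block, 14 of 14 tested immediate early genes had a negative log2 fold change in ICZ mice, with a median of -0.47, against 48.8% of all genes; none passed. Klf6 had -0.35 ± 0.15, Klf4 -0.20 ± 0.10 and Ier3 -0.49 ± 0.25. T cell markers were negative in 16 of 16 cases, with a median of -0.56, and antigen presenting cell markers in 8 of 8, with a median of -1.01. Antigen presenting cell markers summed to between 151 and 171 CPM in ICZ F4, against 806, 207 and 266 CPM in vehicle replicates 1 to 3 of F4. Vehicle replicate 1 had the highest such sum of the vehicle mice in every fraction. The same mouse had the lowest Hspa1a and Hspa1b sum of the vehicle mice. T cell markers summed to between 153 and 361 CPM in ICZ F4, against 159.5 to 374 CPM in vehicle F4. Stroma markers were positive in 5 of 6 cases, with a median of 2.77, and summed to between 31.1 and 153 CPM in ICZ F5, against 12.4 and 18.3 CPM in vehicle F5. The part of these cells in the lower Hspa1a and Hspa1b was not tested.

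The remaining chaperone lists stood near zero in the same comparison. The median was -0.03 for other HSP70 genes, -0.05 for J-domain genes, 0.02 for exchange factors, -0.04 for HSP90 co-chaperones, 0.14 for TRiC subunits, 0.09 for other mitochondrial proteostasis genes and -0.16 for chaperones of the endoplasmic reticulum. None of their genes passed, by edgeR's quasi-likelihood test with Benjamini-Hochberg adjustment, as no gene of the table did. The smallest unadjusted p among them belonged to Dnaja1, a J-domain partner of Hspa8, at -0.31 ± 0.09 (adjusted p = 0.846).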

How the data were processed

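RNA of 29 libraries was measured by 3′ end sequencing. The authors deposited raw counts of reads per gene; per the submitters' processing notes the tools were FastQC 0.11.2, BWA 0.7.17-r1188, SAMtools 1.10 and HTSeq 0.11.2, with build GRCm38.p6 (mm10). The strand setting is not given in the sources used here. Between 51.6% and 61.6% of counted reads were assigned to genes; the 5 summary lines of the counting, with the rest, were left out of library sizes and tests. Counts were normalized by TMM, genes of low count were removed with filterByExpr, and edgeR 4.0.16 (R 4.3.3) gave robust quasi-likelihood tests, adjusted over all genes by Benjamini-Hochberg, with a threshold of 0.05. DESeq2 1.42.0 served as an alternative and limma 3.58.1 was loaded with edgeR. The SE of a fold change was derived from its F statistic. A prior count of 2 was set for log2 CPM values. Fractions were compared with the mouse as a block. ICZ and vehicle mice were compared without a block, with the replicate number as a block as the alternative. The check of that number correlated the deviations of each ICZ mouse and each vehicle mouse from their group means. For mice of the same number r was 0.381, 0.248 and 0.472, and for others it was between -0.423 and -0.0249. Deviations cancel out within a treatment, so the negative values follow in part from the positive values and are no separate evidence of pairing. The numbers were thus taken to pair the mice from these same data, which cannot decide whether they were paired. The titles give replicates 2 and 3, but not replicate 1, the same mouse name in both treatments. The fitting was tested on simulated data. The members and gene lists were chosen with earlier results of these data known. Of each list, up to 3 genes of smallest p were named, and the 10 members always. Alternatives were size factors, the filter, the block, the added pair, DESeq2 and leaving out each mouse. A library labelled undetermined entered no comparison. Sequences are from the RefSeq promoter table and annotation from GENCODE M21. Replicate libraries differed by more than counting error, with chi-square per degree of freedom between 4.74 and 96.1 over 28 pairs.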

Additional observations from a re-analysis of the deposited data

How the results depend on the processing

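Counts of members past the threshold depend on which mice enter. Without the mouse block (no replicate block), the counts in ICZ mice were 1 (F2 against F1), 4 (F3 against F1) and 0 (F4 against F3), and those in vehicle mice 1 (F3 against F1) and 0 (F4 against F3). Leaving out each mouse in turn gave, in ICZ mice, 0 to 7 for F2, 1 to 8 for F3, 5 to 9 for F4 and 4 to 9 for F5 against F1, and 0 to 2 for F4 against F3. In vehicle mice it gave 0 to 1 for F2, 0 to 8 for F3, 3 to 9 for F4 and 7 to 9 for F5 against F1, and 1 to 3 for F4 against F3. With no filter on low counts the F2 count in ICZ mice was 7, and without the F5 library of ICZ replicate 1 it was 6. For F4 against F3 in ICZ mice, adding Hspa1a and Hspa1b to 1 row gave 0 and RLE size factors gave 1. For ICZ against vehicle, the replicate block gave 2 members in the summed fractions, 1 in F2 and 2 in F4. Under the block the summed count was 2 without F5 and 3 in DESeq2, F4 gave 2 in DESeq2, and leaving out the mice of 1 number gave 2 to 3 in both. With no filter, 1 member passed in F1, in the slope and in the joint test. Without the block, leaving out each mouse gave 0 to 2 in F1 and 0 to 1 in F3. The replicate block changed no other count of members. Of the F5 calls in vehicle mice, Hspa8 passed in 4 of 7 alternatives, and Hspd1 (adjusted p up to 0.0547) and Hsph1 (up to 0.0561) in 6 of 7. The cause of these changes was not tested.

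Of single-gene values, 36 changed sign, 119 kept their sign but lost the call, 59 kept their sign and gained a call, and 1293 kept both. Dnajb1 in F3 against F1 of ICZ mice was 0.0742 with no replicate block, and the Hspa1a slope was -0.0389 in DESeq2. Under the replicate block without the mice numbered 2, the summed values were -0.0290 (Hspd1) and -0.0190 (Hspe1), and without those numbered 3 0.0367 (Hspa8). The other changes of sign came from leaving out single mice (lowest to highest log2 value). For F3 against F1, vehicle mice the range was -0.160 to 0.0273 (Dnajb1). For F2 against F1, vehicle mice the range was -0.154 to 0.296 (Hspa8). For F2 against F1, ICZ mice the range was -0.516 to 0.0171 (Dnajb1) and -0.0722 to 1.54 (Hspa1a). For F3 against F1, ICZ mice the range was -0.389 to 0.230 (Dnajb1). For ICZ against vehicle, summed the range was -0.127 to 0.190 (Hsp90ab1), -0.127 to 0.187 (Hspd1), -0.120 to 0.198 (Hspe1), -0.364 to 0.143 (Hspa8) and -0.264 to 0.0136 (Hsp90aa1). For ICZ against vehicle in F2 the range was -0.472 to 0.0322 (Hsph1) and -0.223 to 0.0106 (Dnajb1). For ICZ against vehicle in F3 the range was -0.701 to 0.276 (Hspa1b) and -0.305 to 0.0641 (Dnajb1). For the slope of the ICZ effect the range was -0.165 to 0.179 (Hspa1a) and -0.106 to 0.165 (Hspa1b). For F5 against F1, vehicle mice the range was -0.0849 to 0.329 (Ahr) and -0.00188 to 0.11 (Hspa4). For F4 against F3, vehicle mice the range was -0.253 to 0.639 (Hsf2) and -0.225 to 0.0178 (Arnt). Depth limits Hspb1 and the pair in F1.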

Other observations

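A library labelled undetermined, which the labels put in no group, held 572 reads of Hspa1a and Hspa1b together, or 76.1 CPM, within the range of 1.93 to 250.1 CPM of the 29 grouped libraries on the same scale. It held 62.2 CPM of Dnajb1, 1576 CPM of Hsp90ab1 and 2 reads of Hspb1, all within the range of the grouped libraries.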
